A study of Mus musculus with 18 samples.

Results

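CXC chemokine receptors and a set of G protein-coupled receptors (GPCRs) that position lymphocytes in tissues were examined in regulatory T cells (Tregs) that lack CD25, the alpha chain of the IL-2 receptor encoded by *Il2ra*. The set was given by name and was chosen with earlier results of these data known. It holds 8 of the 50600 genes in the count table: *Cxcr3*, *Cxcr4*, *Cxcr5*, *Cxcr6*, *Gpr15*, *Gpr183*, *Gpr18* and *Gpr83*. *Gpr15* was put in the set for its tissue-dependent change in these data, so its values are described and carry no test. All 8 genes were found by symbol, and each passed the filter on low counts in both tissues, although *Gpr15* passed in the thymus only through its WT counts.

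RNA-seq was performed on Tregs purified by FACS from 18 C57BL/6 mice, 1 library per mouse. Thymic CD25 KO Tregs (n = 5) came from CD25flox/Foxp3-YFP/Cre mice at 3 to 4 weeks of age. These mice had been "cured", that is, given WT splenocytes intravenously as neonates, and they were compared with Foxp3/RFP reporter mice of like age (thymus WT, n = 5) that carry another Foxp3 reporter allele. Whether donor Tregs were among the sorted cells was not measured here. In the thymus, loss of CD25, the neonatal cell transfer and the reporter allele change together. They cannot be told apart in a thymic difference between KO and WT. The term CD25 KO effect is used below for the difference between the KO and WT groups of a tissue. Splenic CD25 KO Tregs (n = 4) came from CD25flox/Foxp3eGFP-Cre-ERT2/R26Y mice and splenic WT Tregs (n = 4) from CD25 WT reporter controls; tamoxifen was given to both groups at 7 to 10 weeks of age and spleens were taken 10 to 14 days later. In both models Cre is expressed from the *Foxp3* locus, so deletion starts with *Foxp3* expression in the thymic model and only after tamoxifen in the splenic model. Mouse model, age, the date in the column headers and tissue change together, so none of them can be told apart in a difference between thymus and spleen. Depth ranged from 17239774 to 23993674 counts for thymic and from 25258341 to 32639570 for splenic libraries. *Il2ra* was at 524 to 682 CPM (read counts scaled to library size) in thymic WT and 95.8 to 280 CPM in thymic CD25 KO mice, with KO mice 2 and 4 highest at 280 and 234 CPM. In the spleen it was at 488 to 538 CPM in WT and 168 to 208 CPM in CD25 KO mice, so every library stood on the side of its label.

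As background, these receptors couple largely to inhibitory G proteins and steer migrating cells along gradients of chemokines or lipids. *Cxcr3* reads the interferon-induced chemokines *Cxcl9*, *Cxcl10* and *Cxcl11*, *Cxcr4* reads *Cxcl12* of stroma and marrow, *Cxcr5* reads *Cxcl13* of B cell follicles and *Cxcr6* reads *Cxcl16*. *Gpr183* (EBI2) follows oxysterols within spleen and lymph nodes, *Gpr15* guides T cells to the large intestine, *Gpr18* is a lymphocyte GPCR whose ligand is debated, and *Gpr83* is a receptor long known to be abundant in Tregs.

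KO and WT Tregs of a tissue were compared with the quasi-likelihood test of edgeR, run across the whole filtered table, and FDR denotes its Benjamini-Hochberg adjusted p. Genes with FDR < 0.01 are called, and "rose" or "fell" is used for called genes. Whether KO and WT values overlap is given per receptor as a description. The share of all genes without overlap was not counted. Of the 7 genes other than *Gpr15*, 5 rose in splenic CD25 KO Tregs (*Cxcr3*, *Cxcr4*, *Cxcr5*, *Cxcr6* and *Gpr183*) and 1 fell (*Gpr83*), against 5.90% of all 17463 genes tested that rose and 3.55% that fell. In thymic CD25 KO Tregs none of the 7 rose and 1 fell (*Gpr83*), against 3.17% of 16986 genes that rose and 2.99% that fell. The CD25 KO effect itself was higher in spleen than in thymus for 3 of the 7 (*Cxcr3*, *Cxcr4* and *Gpr183*) and lower for none, against 4.50% and 2.49% of 18686 genes in a fit of all 18 samples. The median log2 fold change of the 7 was 0.56 in the spleen and -0.12 in the thymus, with -0.01 and 0.0 over all genes tested. Because the 7 were chosen with earlier results of these data known, setting them against all genes describes the set and does not test it. Because the samples are bulk Tregs, fewer cells that carry a receptor and less of its RNA per cell cannot be told apart.

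**Figure D1:**
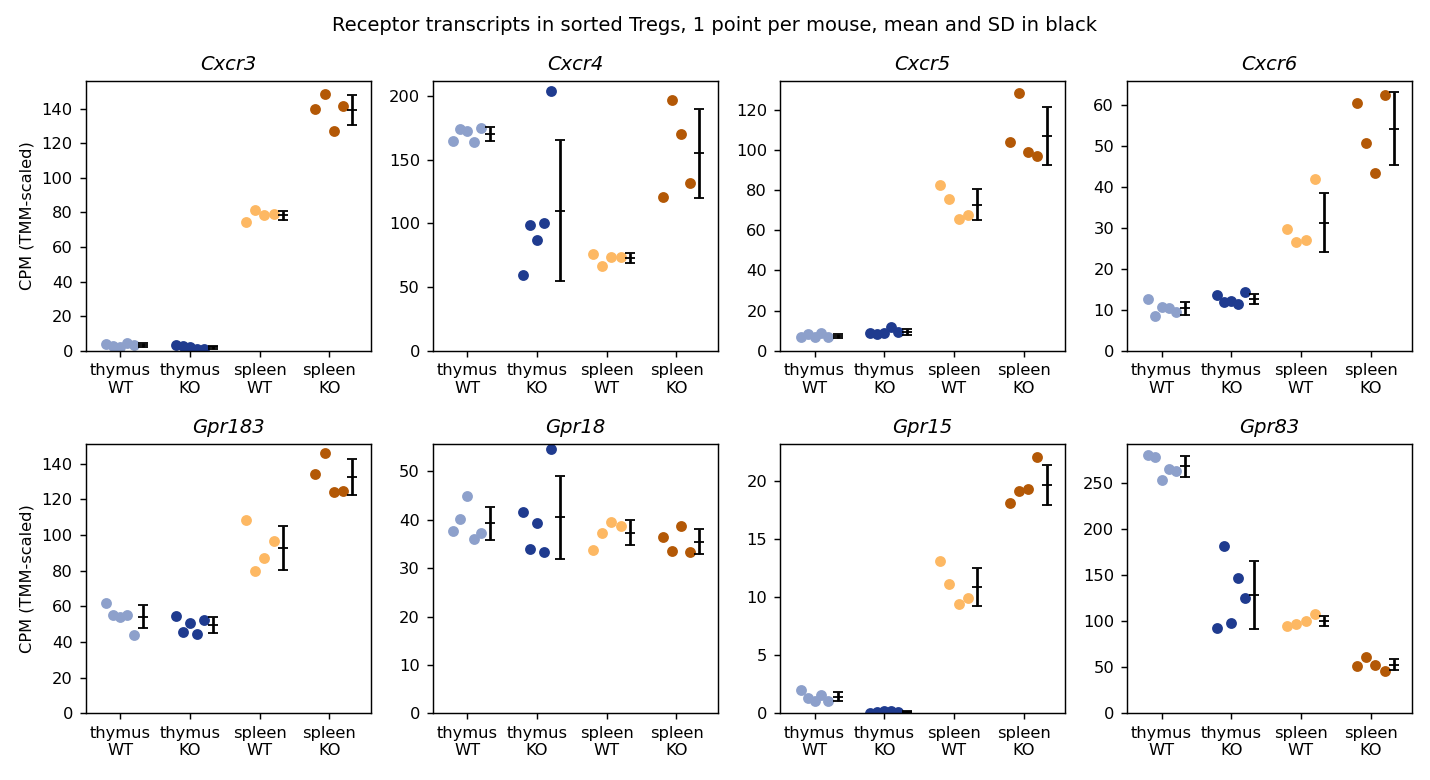
Each panel plots 1 receptor gene, with TMM-scaled CPM on the y axis and the 4 groups on the x axis; each point is 1 mouse and the black bar gives mean and SD. In the spleen the CD25 KO points lie above the WT points for Cxcr3, Cxcr4, Cxcr5, Cxcr6, Gpr183 and Gpr15 and below them for Gpr83, and in the thymus the groups are apart for Gpr83 and Gpr15 alone.

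**Figure D2:**
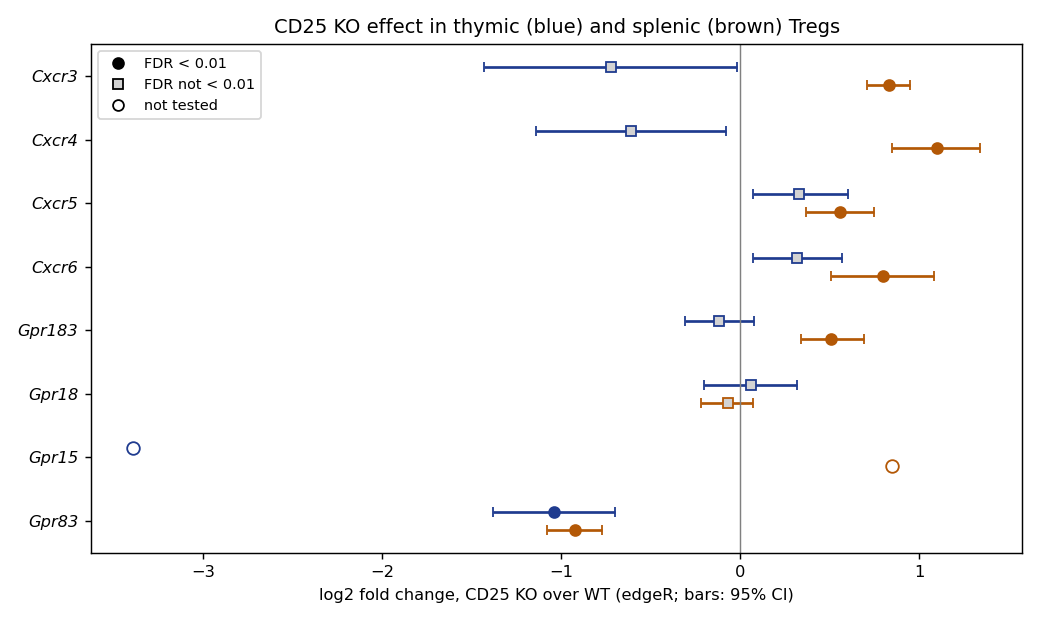
The x axis gives the log2 fold change of CD25 KO over WT from edgeR for each receptor, in thymus (blue) and spleen (brown), with 95% confidence intervals. Filled circles have FDR < 0.01, grey squares do not, and open circles mark Gpr15, which was not tested. Gpr83 lies near -1 in both tissues, while Cxcr3 and Cxcr4 lie on opposite sides of 0.

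*Gpr83* and *Cxcr4* are the extremes of the set, the first lower in CD25 KO Tregs of both tissues and the second with the largest tested difference between tissues, so the 250 bases before their transcription starts are shown (RefSeq, GRCm38.p6), read 5' to 3' on the strand of the gene. Capitals mark the letters of any of 5 short motifs searched on both strands in the 300 bases around each start, namely TTCNNNGAA for STAT factors, GCGTG for AHR, GGTGTG for T-box factors, GTAAACA for forkhead factors and CAGNTG for E-box factors. The *Gpr83* stretch is chr9:14859960-14860209 on the plus strand and the *Cxcr4* stretch is chr1:128592300-128592549 on the minus strand.
Gpr83: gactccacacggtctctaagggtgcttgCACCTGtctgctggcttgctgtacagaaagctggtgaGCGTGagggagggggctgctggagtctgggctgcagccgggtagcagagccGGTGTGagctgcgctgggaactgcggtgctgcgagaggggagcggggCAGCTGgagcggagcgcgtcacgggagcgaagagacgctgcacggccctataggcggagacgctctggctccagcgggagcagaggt
Cxcr4: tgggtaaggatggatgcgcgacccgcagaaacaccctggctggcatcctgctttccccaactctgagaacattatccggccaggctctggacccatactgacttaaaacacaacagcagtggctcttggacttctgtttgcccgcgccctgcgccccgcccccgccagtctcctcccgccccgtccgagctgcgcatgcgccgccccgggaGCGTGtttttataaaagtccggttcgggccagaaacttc
*Gpr83* held GCGTG at 185, GGTGTG at 134 and CAGNTG at 222 and 87 bases before its start, and *Cxcr4* held GCGTG at 39 bases before its start. The table of promoters has 7 of the 8 genes (all but *Cxcr5*). Among these 7 the STAT letters were in 0 promoters, against 8.33% of all 32544 promoters, and the forkhead letters in 0, against 3.66%. GCGTG was in 4 (*Cxcr3*, *Cxcr4*, *Gpr18* and *Gpr83*), against 32.6%. CAGNTG was in 2 (*Cxcr3* and *Gpr83*), against 51.5%, and GGTGTG in 1 (*Gpr83*), against 19%. None of these matches overlaps another, and a match describes letters in a window and nothing about binding.

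*Gpr83* (ENSMUSG00000031932.14; chromosome 9, 14860210 to 14870789, plus strand, 4 exon blocks) was the 1 receptor that fell in CD25 KO Tregs of both tissues. In the thymus it was at 281, 278, 253, 266 and 264 CPM in WT mice 1 to 5 and at 92.4, 182.2, 97.9, 146.9 and 124.98 CPM in CD25 KO mice 1 to 5. All 5 KO values were below all 5 WT values. KO mice 2 and 4 had the most *Gpr83* of their group, and also the most *Il2ra* and the most of the proliferation gene *Mki67* (505.70 and 346.68 CPM). A link between these values was not tested. The log2 fold change was -1.04 (SE 0.158, FDR 0.00213), and it was -1.34 (FDR 1.35e-05) with mice 2 and 4 left out, a choice made after the data were seen. In the spleen it was at 95.4, 97.5, 101 and 108 CPM in WT and 51.0, 61.4, 52.8 and 46.5 CPM in CD25 KO mice, again with no overlap. The log2 fold change there was -0.92 (SE 0.0738, FDR 7.13e-07). The difference of log2 fold changes, spleen minus thymus, was 0.13 with a 95% confidence interval from -0.28 to 0.54 (FDR 0.678), so it was not called. It was 0.42 (FDR 0.0225) without thymic KO mice 2 and 4, the highest value of the alternatives run, and 0.02 was the lowest. Among WT mice *Gpr83* was 2.67-fold lower in spleen (mean 101 CPM) than in thymus (268 CPM), and the 2 groups did not overlap.

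*Cxcr4* (ENSMUSG00000045382.6; chromosome 1, 128588199 to 128592293, minus strand, 2 exon blocks) rose 2.14-fold in the spleen and was scattered in the thymus. Splenic WT mice had 75.6, 66.8, 73.7 and 73.7 CPM and splenic CD25 KO mice 121.0, 196.9, 170.3 and 131.3 CPM. The groups did not overlap, and the log2 fold change was 1.10 (SE 0.115, FDR 9.84e-06). Thymic WT mice had 165, 174, 172, 164 and 175 CPM, within a narrow band, and thymic CD25 KO mice had 59.4, 99.0, 86.9, 100.2 and 204.2 CPM. Of the 5 KO mice, 4 lay below every WT mouse and mouse 5 lay above every WT mouse. The log2 fold change was -0.61 (SE 0.245, FDR 0.0883), so *Cxcr4* was not called in the thymus. Without CD25 KO mouse 5 it was -0.96 (FDR 0.00121) and called, and over all alternatives run the FDR ranged from 0.00121 to 0.208. Double-positive (DP) thymocytes also express *Cxcr4*, and mouse 5 had the highest summed level of the 9 DP thymocyte markers in its group (169.6 CPM, the other 4 KO mice 103 to 123 CPM) and the highest *Rag1* (47.2 CPM), a recombinase of DP cells. Thymic WT mouse 4 had a higher DP sum (239.6 CPM) and *Rag1* (93.1 CPM) with *Cxcr4* at 164 CPM, the lowest of the WT mice. The part of DP cells in the *Cxcr4* value of mouse 5 was not tested. The CD25 KO effect differed between tissues by 1.73 on the log2 scale (SE 0.315, FDR 0.00105).

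*Cxcr3* (ENSMUSG00000050232.6; chromosome X, 101731535 to 101734269, minus strand, 2 exon blocks) was abundant in splenic and low in thymic Tregs. Splenic WT mice had 74.7, 81.1, 78.3 and 79.1 CPM and splenic CD25 KO mice 140.0, 148.5, 127.2 and 141.2 CPM. Every KO mouse was above every WT mouse, with a log2 fold change of 0.83 (SE 0.0557, FDR 1.79e-07). Thymic WT mice had only 4.02, 2.76, 2.06, 4.57 and 3.03 CPM (46 to 100 counts), and thymic CD25 KO mice 3.20, 2.49, 2.18, 1.04 and 0.945 CPM (18 to 64 counts). These groups overlapped, and the log2 fold change of -0.72 was not called (SE 0.326, FDR 0.123). Spleen minus thymus, the CD25 KO effect differed by 1.57 on the log2 scale (SE 0.295, FDR 0.00136). In WT mice the mean was 23.8-fold higher in spleen than in thymus.

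*Cxcr5* (ENSMUSG00000047880.15; chromosome 9, 44511787 to 44561877, minus strand, 5 exon blocks), the follicle-homing receptor, was at 82.6, 75.3, 65.6 and 67.5 CPM in splenic WT and 104.1, 128.2, 98.8 and 97.1 CPM in splenic CD25 KO mice. The KO values all exceeded the WT values, and the log2 fold change was 0.56 (SE 0.0886, FDR 0.000399). Thymic WT mice had 6.92, 8.11, 6.87, 8.91 and 6.79 CPM and thymic CD25 KO mice 8.75, 8.48, 8.71, 11.7 and 9.19 CPM. The thymic groups overlapped through WT mouse 4, and the log2 fold change of 0.33 was not called (SE 0.123, FDR 0.0673). The difference between tissues was 0.24 (95% confidence interval -0.08 to 0.56, FDR 0.294), so a different effect in spleen was not shown for this gene.

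*Cxcr6* (ENSMUSG00000048521.8; chromosome 9, 123806475 to 123811760, plus strand, 2 exon blocks), the receptor for *Cxcl16*, was at 29.6, 26.5, 27.0 and 41.9 CPM in splenic WT and 60.4, 50.7, 43.3 and 62.3 CPM in splenic CD25 KO mice. WT mouse 4 and KO mouse 3 nearly met, at 41.9 and 43.3 CPM, and the groups did not overlap. The log2 fold change was 0.80 (SE 0.134, FDR 0.00065). In the thymus WT mice had 12.5, 8.41, 10.7, 10.3 and 9.56 CPM and thymic CD25 KO mice 13.5, 11.9, 12.1, 11.5 and 14.4 CPM. WT mouse 1 lay inside the KO range, and the log2 fold change of 0.32 was not called (SE 0.115, FDR 0.0629). The difference between tissues was 0.49 (95% confidence interval 0.08 to 0.90, FDR 0.0893), which did not pass the threshold.

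*Gpr183* (ENSMUSG00000051212.7; chromosome 14, 121952551 to 121965195, minus strand, 3 exon blocks), the oxysterol receptor, was at 108, 79.7, 87.0 and 96.6 CPM in splenic WT and 134.3, 146.1, 124.4 and 124.99 CPM in splenic CD25 KO mice. The groups did not overlap, and the log2 fold change was 0.51 (SE 0.0821, FDR 0.000427). The thymic WT mice held 62.1, 55.4, 54.1, 55.2 and 44.0 CPM and thymic CD25 KO mice 54.5, 45.4, 50.6, 44.6 and 52.3 CPM. Here the KO range lay inside the WT range, with a log2 fold change of -0.12 (SE 0.0881, FDR 0.359). The difference of the CD25 KO effect was 0.64 (SE 0.134, FDR 0.00286). Leaving out splenic CD25 KO mouse 2, the highest of its group, took it to 0.58 (FDR 0.010), no longer called, and over all alternatives the FDR ranged from 0.0001 to 0.01.

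*Gpr18* (ENSMUSG00000050350.7; chromosome 14, 121911253 to 121915781, minus strand, 2 exon blocks) lies beside *Gpr183* and showed no called change. Thymic WT mice had 37.8, 40.2, 44.9, 36.1 and 37.3 CPM and thymic CD25 KO mice 41.6, 33.9, 39.3, 33.3 and 54.6 CPM. Splenic WT mice had 33.7, 37.2, 39.6 and 38.7 CPM and splenic CD25 KO mice 36.4, 33.5, 38.7 and 33.3 CPM. All 4 groups overlapped one another. The log2 fold change was 0.06 in the thymus (95% confidence interval -0.20 to 0.32, FDR 0.751) and -0.07 in the spleen (-0.22 to 0.07, FDR 0.53). The difference between tissues was -0.12 (-0.45 to 0.21, FDR 0.648).

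*Gpr15* (ENSMUSG00000047293.6; chromosome 16, 58717433 to 58719070, minus strand, 1 exon block), the large-intestine homing receptor, was chosen for the pattern given next, which is a description. Thymic WT mice had 41, 31, 24, 35 and 26 counts (1.99, 1.32, 1.08, 1.60 and 1.11 CPM), and thymic CD25 KO mice had 0, 2, 4, 4 and 3 counts (0.0, 0.0921, 0.218, 0.180 and 0.157 CPM). The 5 KO libraries together held 13 counts and the 5 WT libraries 157, so that KO stood at 9.13% of WT once scaled to library size. Splenic WT mice had 13.1, 11.1, 9.42 and 9.93 CPM and splenic CD25 KO mice 18.1, 19.1, 19.3 and 22.1 CPM, 1.81-fold higher by the means. Neither tissue had overlapping groups, and the direction was down in the thymus and up in the spleen.

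Of the 8 genes, 5 share a stretch of genome with a gene on the opposite strand, and whether the authors' counting used strand is not given in the sources used here. *Gpr15* shares 204 exonic bases with *Cpox*, a heme synthesis enzyme, and *Cxcr5* shares 110 exonic bases with *Bcl9l*. *Cxcr6* lies within *Fyco1*, and *Gpr183* and *Gpr18* within *Ubac2*, with 0 shared exonic bases. *Cpox* was 1.34-fold higher in splenic CD25 KO than WT mice (log2 fold change 0.43, FDR 0.00015) and at 14.2 against 18.5 CPM in thymic KO and WT mice (-0.36, FDR 0.0567), and its CD25 KO effect differed between tissues by 0.81 (FDR 0.00109). *Bcl9l* fell in the spleen (-0.33, FDR 0.000587), opposite to *Cxcr5*. *Ubac2* changed by 0.06 in either tissue and was called in neither, unlike *Gpr183* in the spleen. *Fyco1* rose in the thymus (0.39, FDR 0.00609) and was at -0.05 in the spleen, unlike *Cxcr6*. The part of shared reads in the values of *Gpr15* and *Cxcr5* was not tested.

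Levels of different receptors were compared as CPM per kilobase of exon. In thymic WT Tregs the order was *Cxcr4* (94.0 ± 3.01, mean and SD, n = 5), *Gpr83* (52.7 ± 2.25), *Gpr18* (26.2 ± 2.33), *Gpr183* (18.8 ± 2.26), *Cxcr6* (5.33 ± 0.780), *Cxcr5* (2.26 ± 0.285), *Cxcr3* (1.90 ± 0.579) and *Gpr15* (0.865 ± 0.232). The ranges of neighbours were apart except for *Cxcr5* with *Cxcr3* and *Cxcr3* with *Gpr15*. In thymic CD25 KO Tregs *Cxcr4* (60.8 ± 30.5) still had the highest mean, but its range met that of *Gpr18* (27.0 ± 5.76), which met *Gpr83* (25.3 ± 7.26), which met *Gpr183* (17.1 ± 1.49). The lower members *Cxcr6* (6.58 ± 0.638), *Cxcr5* (2.81 ± 0.394), *Cxcr3* (1.14 ± 0.559) and *Gpr15* (0.0790 ± 0.0522) kept their order with ranges apart.

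Splenic WT Tregs were led by *Cxcr3* (45.2 ± 1.56, n = 4), followed by *Cxcr4* (40.1 ± 2.12), *Gpr183* (32.2 ± 4.30), *Gpr18* (24.9 ± 1.74), *Cxcr5* (21.8 ± 2.34), *Gpr83* (19.7 ± 1.13), *Cxcr6* (16.2 ± 3.73) and *Gpr15* (6.64 ± 1.01). There *Cxcr4* met *Gpr183*, and from *Gpr18* to *Cxcr6* each range met the next. In splenic CD25 KO Tregs *Cxcr4* (85.7 ± 19.4) and *Cxcr3* (80.4 ± 5.12) led with overlapping ranges. *Gpr183* (45.9 ± 3.53), *Cxcr5* (32.1 ± 4.32), *Cxcr6* (28.0 ± 4.59) and *Gpr18* (23.7 ± 1.72) followed, with *Cxcr5*, *Cxcr6* and *Gpr18* meeting in turn. *Gpr15* (12.0 ± 1.05) and *Gpr83* (10.4 ± 1.23) came last and overlapped, so *Gpr83* stood at the end of the order in splenic KO Tregs and at the second place in thymic WT Tregs.

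**Figure D3:**
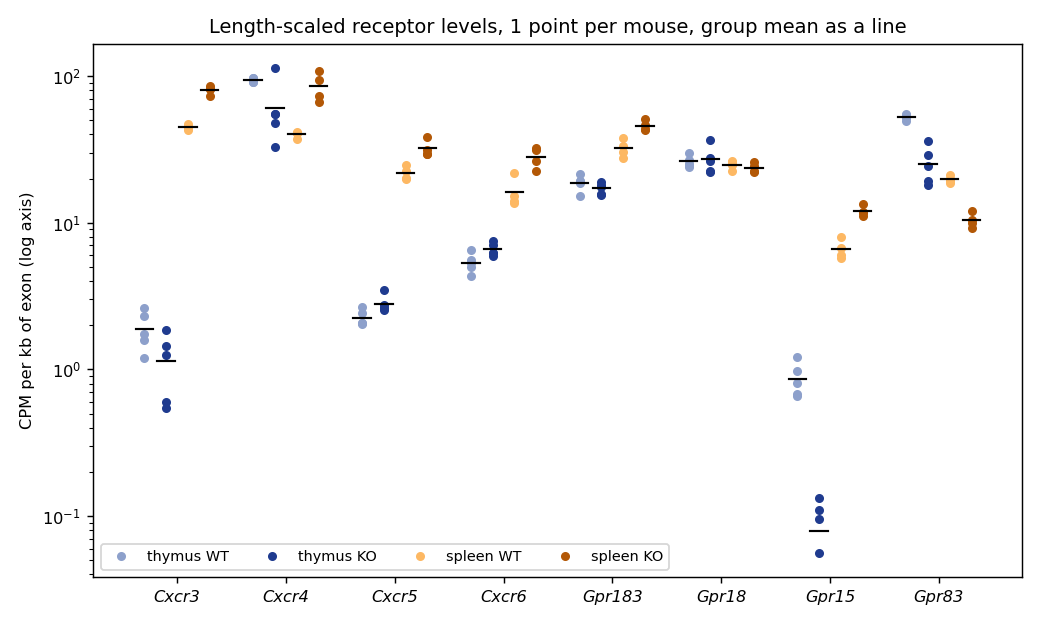
The y axis gives CPM per kilobase of exon on a log axis and the x axis the 8 receptors; each point is 1 mouse, coloured by group, and lines are group means. A zero count (1 thymic CD25 KO mouse for Gpr15) has no point on the log axis. Cxcr3, Cxcr5, Cxcr6 and Gpr15 lie higher in spleen than in thymus, Gpr18 is level across groups, and Gpr83 is highest in thymic WT mice.

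Ligand genes of the CXC receptors were also measured in these sorted cells. Of 6 ligand genes, 3 were tested in the spleen and 1 rose, against 5.90% of all genes. The riser, *Cxcl10*, a ligand of *Cxcr3*, went from 12.9 ± 2.19 to 27.1 ± 0.854 CPM (log2 fold change 1.08, FDR 2.97e-06). *Cxcl9* (log2 fold change 0.99, FDR 0.249) and *Cxcl16* (0.24, FDR 0.436) were not called there. In the thymus 2 were tested and none was called. *Cxcl13*, the ligand of *Cxcr5*, had at most 3 counts in any library. Of 6 other chemokine receptors (*Cxcr1*, *Cxcr2*, *Ackr1*, *Ackr2*, *Ackr3* and *Ackr4*), *Ackr4*, a scavenging receptor, was the 1 with more than 3 counts in a library, and it was not called in either tissue. The 4 oxysterol enzymes (*Ch25h*, *Cyp7b1*, *Cyp27a1* and *Hsd3b7*) had at most 3 counts in every splenic library, and *Cyp27a1*, the 1 tested in the thymus, was not called.

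Genes that carry or end the signal of these receptors were counted next, in short lists whose shares are to be read against those of all genes tested (in the spleen 5.90% rose and 3.55% fell, in the thymus 3.17% and 2.99%, and the difference was higher for 4.50% and lower for 2.49%). Of 9 G protein subunits tested in the spleen, 1 rose (*Gng2*, log2 fold change 0.36, FDR 0.00101) and 2 fell, namely *Gnb4* (-0.98, FDR 0.000372) and *Gng12* (-0.54, FDR 0.00229). None of 9 was called in the thymus, and the effect was lower in spleen for *Gnb4* (difference -1.12, FDR 0.000392) and *Gng12* (-0.64, FDR 0.00437). Of 7 receptor kinases and arrestins, *Arrb1* fell in the spleen (-0.24, FDR 0.00356) and none was called in the thymus. Among 8 RGS proteins, which shorten G protein signals, *Rgs16* rose (0.67, FDR 0.000318) and *Rgs10* (-0.30, FDR 0.00266) and *Rgs14* (-0.23, FDR 0.00558) fell in the spleen. *Rgs1* fell in the thymus (-0.77, FDR 0.00497), from 161 ± 14.1 to 93.8 ± 23.3 CPM.

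Of 18 migration effectors tested, 1 rose in the spleen, against 5.90% of all genes (*Rap1a*, a small GTPase of integrin activation, 0.36, FDR 0.00429). There 2 fell, against 3.55% of all genes, *Plcb2* (-0.38, FDR 0.000808), a phospholipase downstream of Gβγ, and *Pik3r5* (-0.37, FDR 0.0043), a subunit of the GPCR-driven PI3 kinase. In the thymus 1 fell, against 2.99% of all genes, *Plcb3* (-0.71, FDR 0.00548), for which the effect also differed between tissues (0.65, FDR 0.00876). At most 1 or 2 genes were called in a direction per list, too few to tell a list apart from all genes. The medians of these 4 lists lay between -0.16 and 0.09 in both tissues.

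Transcription factors tied to these receptors or to Treg subsets formed the fifth list. It was chosen with earlier results of these data known, so setting it against all genes describes the list and does not test it. Its *Prdm1* and *Foxp3* are also in the lists of Treg genes given below. Of 14 tested in the spleen, 9 rose and 2 fell, against 5.90% and 3.55% of all genes, with a list median of 0.43. Those with the largest rise were *Ascl2* (1.45, FDR 0.00137), known to raise *Cxcr5* in follicular helper T cells, *Tbx21* (1.00, FDR 6.17e-07), which encodes T-bet and is known to act on *Cxcr3*, and *Prdm1* (1.00, FDR 6.17e-07), a factor of effector Tregs. *Ascl2* stayed low, from 0.583 ± 0.160 to 1.62 ± 0.375 CPM, and *Tbx21* went from 14.3 ± 1.33 to 28.6 ± 1.28 CPM. *Foxp3* (-0.55, FDR 6.9e-06) and *Foxo1* (-0.24, FDR 0.00451) fell. In the thymus 4 of 14 fell, against 2.99% of all genes, and none rose, against 3.17%. The largest falls were those of *Runx3* (-1.70, FDR 0.000355), *Prdm1* (-1.05, FDR 0.00366) and *Foxp3* (-0.74, FDR 0.00101). The difference between tissues was called for 5 of 15, all higher in the spleen, against 4.50% of all genes. It was largest for *Prdm1* (2.06, FDR 9.31e-07), *Runx3* (2.01, FDR 2.87e-06) and *Maf* (0.94, FDR 0.00291), and was not called for *Tbx21* (0.92, FDR 0.0105).

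**Figure D4:**
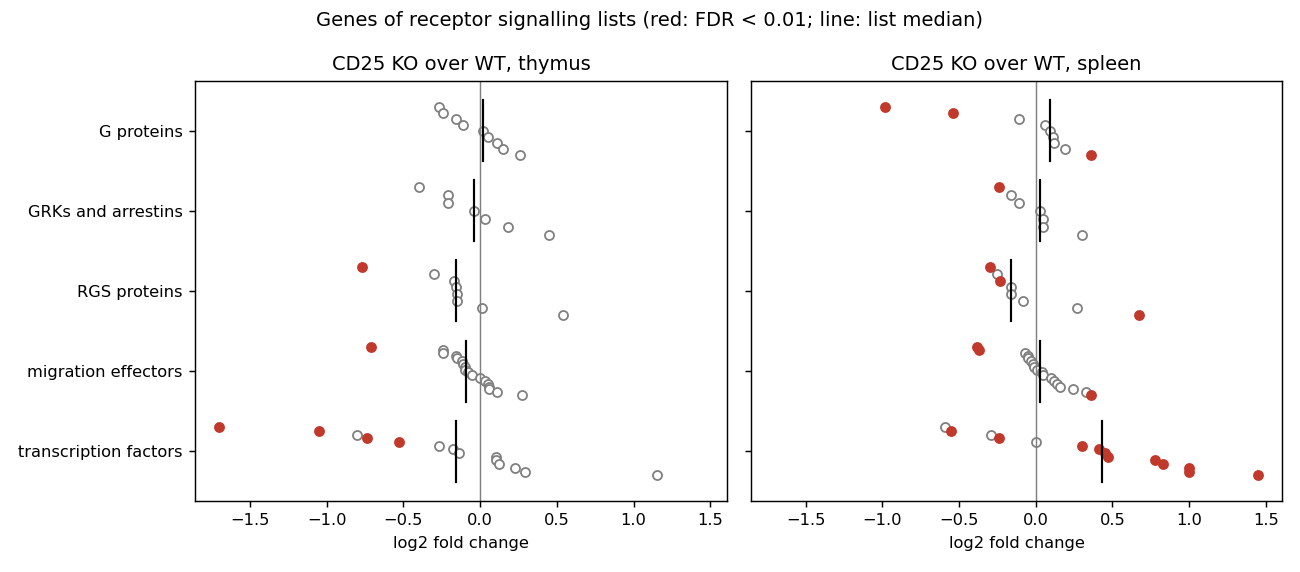
Each point is 1 gene of the list named on the y axis, placed by its log2 fold change of CD25 KO over WT in thymus (left) and spleen (right); red points have FDR < 0.01 and black lines are list medians. Of the transcription factors, 9 of 14 are red to the right of 0 in the spleen, against 5.90% of all genes tested. In the thymus 4 of 14 are red to the left, against 2.99%. The other lists centre near 0.

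Genes of Treg subsets moved beside the receptors. The effector Treg list (10 genes) and the central Treg list (4 genes) were chosen by the study on these samples, so their direction in the spleen is not independent evidence. In the spleen all 10 effector genes rose, against 5.90% of all genes, and all 4 central genes fell, against 3.55%. The list medians were 1.0 and -0.86. In the thymus 6 of 9 effector genes fell, against 2.99% of all genes, and 0 of 4 central genes were called. The summed effector level was 575 to 639 CPM in splenic WT and 1007 to 1138 CPM in splenic KO mice. In the thymus it was 466 to 709 CPM in WT mice, 742 and 585 CPM in KO mice 2 and 4, and 219 to 284 CPM in the other 3 KO mice. *Mki67*, a proliferation gene of that list, made up 505.70 and 346.68 CPM of the sums of KO mice 2 and 4, 69 to 105.35 CPM in the other 3 KO mice and 196.54 to 455.31 CPM in WT mice. Without it the sum was 254.09 to 291.25 CPM in the 5 WT mice and 149.91 to 237.98 CPM in the 5 KO mice, all KO mice below all WT mice. The part of a shift between Treg subsets in the receptor values was not tested.

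Markers of other cells that carry these receptors were also counted. All 7 Treg defining genes were found in every group. Their sum was 3365 to 4268 CPM in thymic WT and 3006 to 3620 CPM in thymic KO mice. In the spleen it was 3332 to 3541 CPM in WT and 3429 to 3805 CPM in KO mice. Of the 7, 4 fell in the thymus, against 2.99% of all genes, with *Il2ra*, *Foxp3* and *Tnfrsf18* the largest. In the spleen 3 rose (*Ikzf2*, *Cd4* and *Cd3e*) and 2 fell (*Il2ra* and *Foxp3*), against 5.90% and 3.55%. *Il2ra* is the deleted gene, so its log2 fold changes of -1.90 (thymus) and -1.49 (spleen) follow from the genotype. It counts in these calls and in the sums of this list. B cells carry *Cxcr5*, *Gpr183* and *Gpr18*. Their 10 markers summed to 36.3 to 42.6 CPM in splenic WT and 45.8 to 55.9 CPM in splenic KO mice. Of 6 tested there, 2 rose (*Cd22* and *Pax5*), against 5.90% of all genes. Of these 6 genes, 5 had a log2 fold change above 0 in the spleen and 1 had a value below 0. The 6 NK and ILC markers summed to 6.74 to 10.1 CPM in splenic WT and 13.1 to 18.1 CPM in splenic KO mice. *Ncr1* and *Klra8* were at 0 counts in every splenic library. Of 3 tested there, 1 rose (*Klrb1c*), against 5.90% of all genes. Of these 3, 2 had a log2 fold change above 0 and 1 below 0. The 10 myeloid and DC markers summed to 13.5 to 20.5 CPM in splenic WT and 18.6 to 24.6 CPM in splenic KO mice. Of 4 tested there, 1 rose, against 5.90% of all genes, namely *Lyz2*, from 6.17 to 12.6 CPM by the means. Of these 4, 2 had a log2 fold change above 0 and 2 below 0. The 9 DP thymocyte markers summed to 81.8 to 239.6 CPM in thymic WT and 103 to 169.6 CPM in thymic KO mice, with none called. In the thymus the sums of WT and KO mice overlapped for B cell (16.2 to 20.5 and 15.5 to 25.4 CPM), NK and ILC (6.36 to 13.9 and 5.77 to 19.8 CPM) and myeloid markers (8.24 to 45.2 and 13.5 to 40.9 CPM), and none was called. Apart from the measurements given, the part of other cells in the splenic receptor values was not tested.

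For each receptor the 2 genes with the most similar pattern were found as a description, by the root mean square (RMS) difference of log2 CPM after each tissue was centred, over the 18 samples and 12242 genes. *Gpr83* was nearest to *Slc17a9* (RMS difference 0.18) and *Myc* (0.19), against its own RMS of 0.56. *Cxcr3* was nearest to *Plcb4* (0.30) and *S100a11* (0.32), and *Cxcr4* to *Rnf125* and *Ifngr1* (both 0.31). *Cxcr5* was nearest to *Dus2* and *Tbc1d4* (both 0.15), and *Cxcr6* to *Gpr155* (0.18) and *Lamp2* (0.21). *Gpr183* was nearest to *Ctsb* (0.10) and *Rab19* (0.11), and *Gpr18*, with its own RMS of 0.16, to *Rsu1* (0.08) and *Trbj2-7* (0.09). *Gpr15* was nearest to *Fgl2* (0.49) and *Tent5a* (0.50), against its own RMS of 1.19.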

How the data were processed

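RNA-seq libraries from 18 mice were analysed. The authors mapped paired-end reads to GRCm38 with STAR (2.5.0b in the submitters' processing notes), counted them per GENCODE M13 gene with featureCounts (1.5.0), and deposited raw counts for 50600 genes. Whether counting used strand is not given in the sources used here. Symbols, coordinates and exonic lengths came from GENCODE M21 (same build), which named 50376 genes; promoters are from RefSeq (GRCm38.p6).

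Analyses used R 4.3.3 with edgeR 4.0.16: filterByExpr, TMM scaling, and the quasi-likelihood test with Benjamini-Hochberg adjustment over all genes tested, within each tissue, and over all 18 samples for the difference of effects. Genes were called at FDR < 0.01, the study's threshold. DESeq2 1.42.0, which the study used, was an alternative. CPM were TMM-scaled over all 18 samples. On simulated counts, 85.5% (thymus), 94.5% (spleen) and 73.5% (difference) of 200 genes changed 2-fold were called. The 200 were drawn from genes above a floor of average level. Changes smaller than 2-fold and changes of genes under that floor were not simulated. Groups follow the sample labels; no 2 libraries of a group agreed within sampling noise. Every receptor is named; of each other list at most 3 called genes per direction with the largest fold change are named, and lists of at most 6 genes may be named whole. The receptors and the gene lists were chosen with earlier results of these data known.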

Additional observations from a re-analysis of the deposited data

Results flagged for a closer look

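Among 32 combinations of receptor and group, 2 held a mouse far from the rest of its group by a gap test at the 95% level, which chance alone passes in about 1 in 20 groups. *Cxcr4* was at 204.2 CPM in thymic CD25 KO mouse 5, while the other 4 mice of the group had 59.4 to 100.2 CPM. *Cxcr5* was at 11.7 CPM in thymic CD25 KO mouse 4, while the other 4 mice had 8.48 to 9.19 CPM.

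The CD25 KO effect differed between spleen and thymus by edgeR's test of the difference for *Cxcr3* (1.57 on the log2 scale, spleen minus thymus, FDR 0.00136), *Cxcr4* (1.73, FDR 0.00105) and *Gpr183* (0.64, FDR 0.00286). For *Gpr15* the difference was 4.26 and was not tested, because the gene was chosen for it; all 5 thymic KO mice were below all WT mice and all 4 splenic KO mice above them.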

How the results depend on the processing

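In the spleen the 5 receptors called higher and the 1 called lower stayed so in all 16 alternatives, and *Gpr83* was called lower in the thymus in all 21. Members called lower in the thymus ranged from 1 to 2 when 1 library was left out (2 without CD25 KO mouse 5, which adds *Cxcr4*), and *Cxcr3* and *Cxcr4* kept their difference between tissues in all 26. *Gpr183* was called in 25 of 26 (not without splenic CD25 KO mouse 2). No called value changed sign. Counts over all genes moved more. In the thymus 1047 genes became 3951 at FDR < 0.05, 2730 with DESeq2, 2881 with all 18 samples in 1 fit and 2008 without KO mice 2 and 4, and 371 to 1087 with 1 library left out. In the spleen 1651 became 3001 at FDR < 0.05, 795 in 1 fit of all samples, and 1099 to 1723 with 1 library left out. The difference of 1305 became 3149 at FDR < 0.05, 2188 with DESeq2, 2307 without thymic KO mice 2 and 4, and 817 to 1489 with 1 library left out. The cause was not tested, apart from the looser threshold and the smaller groups. With at least 10 counts required in every sample, *Gpr15* was not fitted in the thymus or for the difference.

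Thymic mice of the 2 genotypes share numbers in their labels. Same-numbered mice did not clearly deviate together (correlations 0.106, 0.033, -0.043, -0.182 and -0.047), and the main tests used no pairing. Without mismatched pairs to compare with, these correlations cannot exclude that the numbers pair the mice. With the replicate block 209 thymic genes were called, and 198 with the block and the GC trend removed. Thymic fold changes fell with GC content (Spearman's rho -0.40 across genes, which are not independent replicates), and removing that trend changed no call of a receptor.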
